A study of Arabidopsis thaliana with 5 samples.

Results

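The Aux/IAA proteins and the GH3 enzymes are the repressors and the auxin-removing enzymes of the auxin response in plants. The 29 Aux/IAA genes of Arabidopsis thaliana and 5 GH3 genes (GH3.1, GH3.2, GH3.3, GH3.5 and GH3.6) are described here, 34 genes in all, among 25433 genes of the array with a matched probe. A probe was assigned to a gene through the locus of the transcript accession printed with it, so that genes with an older name (SHY2 for IAA3, AXR2 for IAA7, BDL for IAA12, SLR for IAA14, AXR3 for IAA17, MSG2 for IAA19) were found as well. Probes were matched for 31 of the 34 genes, 26 Aux/IAA and 5 GH3, and none was matched for IAA9, IAA15 or IAA32. The genes were taken by family membership, other GH3 genes being listed apart. Earlier results of these data were known when the choice was made.

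The arrays measured bulk RNA of cotyledons of 7-day-old seedlings, grown in 16 h of light and 8 h of dark, on 1-colour Agilent arrays. The wild type Col-0 was read in 2 biological replicates and the mutant ckg in 3. The labels name no background, allele or number of lines for ckg, and they spell the genotype cgr in one field and ckg in the others. The gene reported by this mutant name, AT5G50915 on chromosome 5, codes for a helix-loop-helix protein. Its 3 probes were well above background on both Col-0 arrays and on none of the ckg arrays, and their signal was at least 54.1-fold, 34.1-fold and 38.4-fold lower in ckg (limma adjusted p = 0.143, 0.155 and 0.141).

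Signals are given as scaled log2 signal, the log2 of the processed signal minus the 75th percentile of the same array, so that 0 is the level of that percentile. Between 66.7% and 70.0% of the non-control spots were well above background on 4 arrays and 52.4% on ckg replicate 3, where no processed signal fell below 31.0, the lowest on the others being 2.68 to 4.01. Both Col-0 arrays lay on slide 1 and the 3 ckg arrays on slide 2, and each slide had its own scan. Genotype therefore cannot be told apart from slide or scan. The outermost of the 85 spot columns was dim on Col-0 replicate 2: there 59.1% of 215 spots lay more than 1 log2 unit below the other arrays, against 1.45% in its other columns. Of those other columns, column 84 had 19.1%. On ckg replicate 1 the share reached 10.9%, in column 1. In bulk tissue, fewer cells of a type and less RNA per cell cannot be told apart. All 3 mesophyll, 3 vascular and 3 epidermal markers were well above background on all 5 arrays, and the 4 shoot apex markers (STM, CLV3, WUS and KNAT1) on none. Of 4 root markers, PYK10 was well above background on all 5 arrays and RSL4 on none. COBL9 passed on both Col-0 arrays and on 2 of 3 ckg arrays, and CASP1 on 1 Col-0 array alone. The summed vascular signal, with the 75th percentile as 1, was 24.9 and 27.5 on the Col-0 arrays against 17.9 to 25.6 on the ckg arrays, and the epidermal sum 12.8 to 12.9 and 8.91 to 13.3. The xylem protease gene XCP1 differed by −0.66 ± 0.20 log2 units between ckg and Col-0 (SE, limma unadjusted p = 0.0191, adjusted p = 0.201) and the epidermal gene PDF1 by −0.51 ± 0.16 (unadjusted p = 0.0212, adjusted p = 0.205). The other markers of these lists gave −0.22 ± 0.22 for SUC2, 0.02 ± 0.12 for SEOR1, 0.20 ± 0.32 for ATML1 and −0.40 ± 0.20 for FDH. The part of these markers in the differences below was not tested.

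Auxin acts by removing repressors. When the hormone joins an F-box receptor of the TIR1/AFB family to the degron of an Aux/IAA protein, that protein is ubiquitinated and degraded, and the auxin response factors (ARFs) that it held in check, together with TOPLESS corepressors, can then drive transcription. Many Aux/IAA genes are themselves targets of ARFs, as are the GH3 genes, whose enzymes join the hormone to amino acids and so lower its free level, and both families are therefore used as readouts of auxin response. In cotyledons and leaves auxin acts in vein formation and in cell expansion.

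The Aux/IAA genes with a probe divided by signal, set out here by whether the protein carries the degron. Of the 23 Aux/IAA genes whose proteins carry it, 21 had a probe, and 18 of these were well above background on all 5 arrays. Of the others, IAA7 and IAA8 each had 1 spot left out as an outlier, and IAA6 passed on 2 of 3 ckg arrays. In 6 Aux/IAA proteins, IAA20, IAA30, IAA31, IAA32, IAA33 and IAA34, the degron is missing or altered, and such proteins are long-lived. Of their 5 genes with a probe, 0 were well above background on every array of either genotype. The probes of IAA20, IAA31 and IAA33 were not well above background on any array, and those of IAA30 and IAA34 passed on Col-0 replicate 2 and ckg replicate 2 alone. Of all 25433 genes with a matched probe, 15021 were well above background on all 5 arrays and 18122 on every array of at least 1 genotype. The grouping by degron was chosen after the values had been seen, and it says nothing of levels under the array's range.

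The GH3 genes also divided by signal. GH3.3, GH3.5 and GH3.6 were measured in both genotypes, whereas GH3.1 was not well above background on any array. GH3.2 passed on 1 of 2 Col-0 arrays and on 1 of 3 ckg arrays, with scaled log2 signals of −5.57 and −7.33 for Col-0 against −6.43, −7.30 and −5.66 for ckg. The test took genes whose probe passed on all arrays of 1 genotype or of both, a rule met by 18122 genes, among them 21 Aux/IAA and 3 GH3 genes. The 7 genes with a probe that were not tested were IAA20, IAA30, IAA31, IAA33, IAA34, GH3.1 and GH3.2. No member was measured in one genotype and near background in all arrays of the other.

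**Figure D1:**
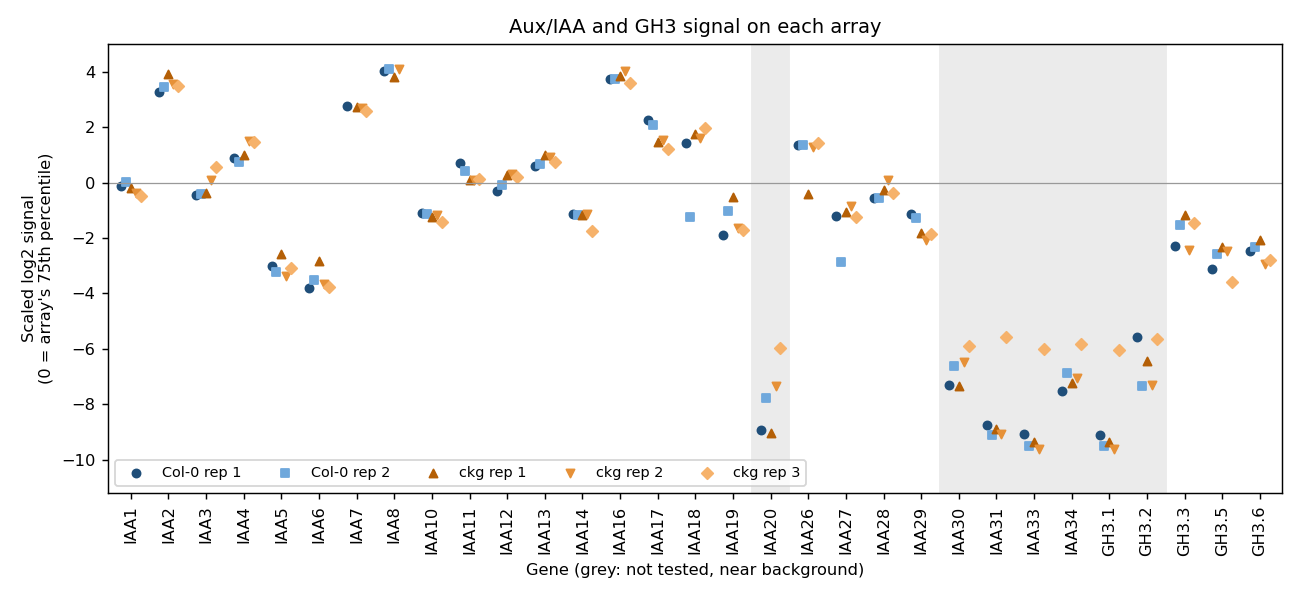
Scaled log2 signal (vertical axis, 0 is the array's 75th percentile) of the 31 genes with a probe on each of the 5 arrays, 1 point an array. Grey bands mark the 7 genes that were not tested, whose points lie below −5; IAA18 and IAA27 on Col-0 replicate 2 and IAA26 on ckg replicate 1 lie apart from the other arrays, and signals of different genes are not comparable because each probe has its own response.

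Comparison of ckg with Col-0 asked whether transcripts of the repressors and of the conjugating enzymes differ in the mutant. After Benjamini-Hochberg adjustment in limma, 0 of the 24 tested members passed 0.05, the smallest adjusted p among them being 0.12. The same held for 0% of all genes tested, whose smallest adjusted p was 0.0551. With 5 arrays there are 10 ways to split the samples, so the smallest exact permutation p for a single gene is 0.1.

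At an unadjusted limma p under 0.05, 5 of 24 members (20.8%) were counted, against 18.2% of all genes tested. They were 3 genes with lower signal in ckg, IAA17, IAA29 and IAA11, against a background of 9.79% lower, and 2 with higher signal, IAA12 and IAA4, against 8.38% higher. The members' share lay near that of all genes with every array in. Without ckg replicate 1 the counts were 5 lower and 3 higher (33.3% of members, against 17.5% of all genes), the added genes being IAA1, IAA3 and GH3.6. The higher count was 1 without Col-0 replicate 2 (members' share of both signs 16%, against 9.29%) and 1 without ckg replicate 2 (16.7%, against 14%). It was 3 without ckg replicate 3 (25%, against 22.8%), and without Col-0 replicate 1 the counts were 2 and 2 (16%, against 8.52%). Over all tested members 10 differences were below 0 and 14 above, with a median of 0.10 log2 units, against −0.01 over all genes. The ckg and Col-0 arrays did not overlap for 12 of 22 members measured on all 5 arrays (54.5%). They were 5 lower and 7 higher, where 42.1% of all genes did not overlap, 22.6% lower and 19.5% higher.

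IAA17 (AXR3, chromosome 1) had the lowest value of ckg relative to Col-0. This repressor is known from gain-of-function alleles that make shoots and roots respond abnormally to auxin. Its scaled log2 signal was 2.24 and 2.08 in the wild type and 1.46, 1.52 and 1.21 in the mutant. Every ckg array lay below both Col-0 arrays. The difference was −0.76 ± 0.14 log2 units (SE), a 1.69-fold lower signal in ckg, with a limma unadjusted p of 0.00248 and an adjusted p of 0.123. A dimmer probe of the same gene did not repeat it: its values were 0.14 and −1.90 in Col-0 and, in ckg, −0.72, −0.64 and −1.17, a difference of 0.04 ± 0.61. On that probe the Col-0 arrays lay on either side of all ckg arrays, and with the mean of both probes the gene's difference was −0.36 (limma unadjusted p = 0.353). Around the dimmer probe, 10.1% of 89 neighbouring spots, those within 12 rows and 3 columns, were more than 1 log2 unit below the other arrays on Col-0 replicate 2.

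IAA29 (chromosome 4), a gene known to be induced in shade and by phytochrome-interacting factors, gave −1.14 and −1.28 for Col-0 against −1.82, −2.07 and −1.87 for ckg. Each ckg array lay more than the gap between the Col-0 arrays below them. Its signal in ckg was 1.63-fold lower, a difference of −0.71 ± 0.13 log2 units (limma unadjusted p = 0.00215, adjusted p = 0.12). The value kept an unadjusted p under 0.05 in 16 of 16 alternative settings, over which it ranged from −0.78 to −0.61. Around its probe, 11% of 91 neighbouring spots were more than 1 log2 unit below the other arrays on Col-0 replicate 2.

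IAA11 and IAA12 differed with opposite signs. IAA11 (chromosome 4) gave 0.71 and 0.43 in the wild type and 0.09, 0.09 and 0.12 in the mutant, so the ckg arrays agreed more closely than the Col-0 arrays did. Its difference was −0.47 ± 0.12 log2 units, a 1.38-fold lower signal in ckg (limma unadjusted p = 0.0113, adjusted p = 0.173). IAA12 (BDL, chromosome 1) codes for the repressor that holds ARF5 (MONOPTEROS) in check in the embryo, where stabilised BDL blocks root formation. Its signal was −0.29 and −0.10 in Col-0 and, in ckg, 0.28, 0.30 and 0.19, all ckg arrays being higher. The difference was 0.46 ± 0.11 log2 units, or 1.37-fold (limma unadjusted p = 0.00912, adjusted p = 0.164). Both genes exceeded an unadjusted p of 0.05 without Col-0 replicate 1, where IAA11 differed by −0.33 and IAA12 by 0.36.

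IAA4 (chromosome 5), an auxin-induced repressor first isolated among the early auxin genes, gave 0.89 and 0.76 for Col-0 against 1.00, 1.49 and 1.46 for ckg. The groups did not overlap, but ckg replicate 1 lay close to Col-0. Its difference was 0.50 ± 0.18 log2 units, or 1.41-fold (limma unadjusted p = 0.0417, adjusted p = 0.259). The second probe of IAA4 gave 0.42 ± 0.16 (limma unadjusted p = 0.0454 in a fit over all probes). The unadjusted p stayed under 0.05 in 8 of 17 alternatives, and without ckg replicate 1 the difference was 0.65.

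**Figure D2:**
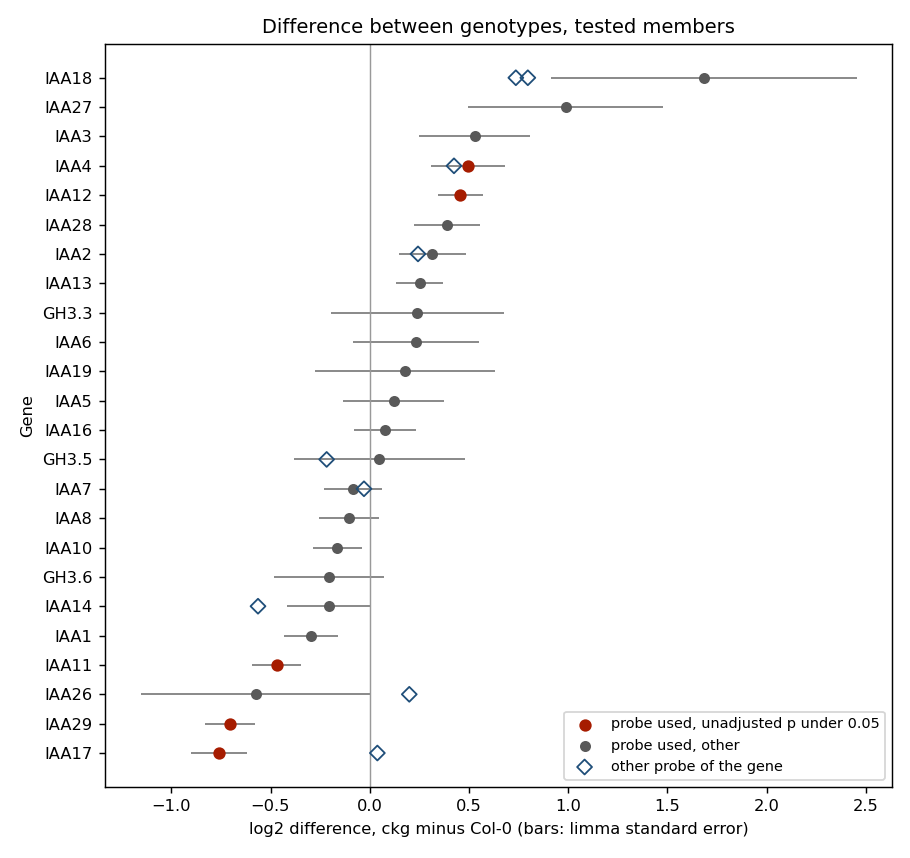
Log2 difference (ckg minus Col-0, horizontal axis) of the 24 tested members, filled points being the probe used with limma standard error bars and open diamonds the other probes of the same gene. Red marks the 5 genes at an unadjusted p under 0.05; the other probes of IAA17, IAA26 and GH3.5 lie on the opposite side of 0 from the probe used.

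The widest difference in the list belonged to IAA18, and it rested on 1 array. IAA18 (chromosome 1) is a repressor whose stabilised form disturbs the apical pattern of the embryo and lateral root formation. The probe used, which had the highest mean signal of its 3 probes, gave 1.44 and −1.25 in the wild type and 1.76, 1.61 and 1.97 in the mutant, and its difference was 1.68 ± 0.77 log2 units (limma unadjusted p = 0.0780, adjusted p = 0.322). Col-0 replicate 2 stood alone: the difference was 0.34 without that array and 3.03 without Col-0 replicate 1. The unnormalised median intensity of the spot was 5123 and 499.5 in Col-0 and, in ckg, 5742.5, 5684 and 6127. A gap between Col-0 arrays as wide as this one was found in 0.172% of genes. The spot lies in column 85, the dim outermost column of that array.

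The other probes of IAA18, in columns 15 and 82, gave closer values. The probe in column 15 read 0.29 and 0.48 for Col-0 against 1.08, 1.25 and 1.04 for ckg, a difference of 0.74 ± 0.13 log2 units (limma unadjusted p = 0.00226, adjusted p = 0.157 over all probes). The probe in column 82 read 0.15 and −0.03 in the wild type and 0.68, 0.75 and 1.15 in the mutant, a difference of 0.80 ± 0.19 (limma unadjusted p = 0.00707, adjusted p = 0.192). On both, every ckg array was above both Col-0 arrays. The raw median intensity of the spot in column 82 was 2520.5 and 1365.5 in Col-0 and, in ckg, 4301, 4608 and 5028. For the spot in column 15 it was 2386 and 2380 in Col-0 and, in ckg, 3496, 4071.5 and 3425. Around the probe in column 82, 7.95% of 88 neighbouring spots were over 1 log2 unit low on each Col-0 array. On each ckg array that share was 0%. Around the probe in column 15, the shares of 72 spots were 4.17% and 5.56% for Col-0 against 2.78%, 0% and 0% for ckg. The part of these low spots in the difference was not tested. When the spots of column 85 were set aside on every array, an alternative chosen after the values had been seen, the difference of IAA18 was 0.75 ± 0.12, or 1.68-fold (limma unadjusted p = 0.00141, adjusted p = 0.107). With that setting 3 members were higher and 3 lower at an unadjusted p under 0.05, of 23 tested, against 18.2% of all genes in the same fit.

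**Figure D3:**
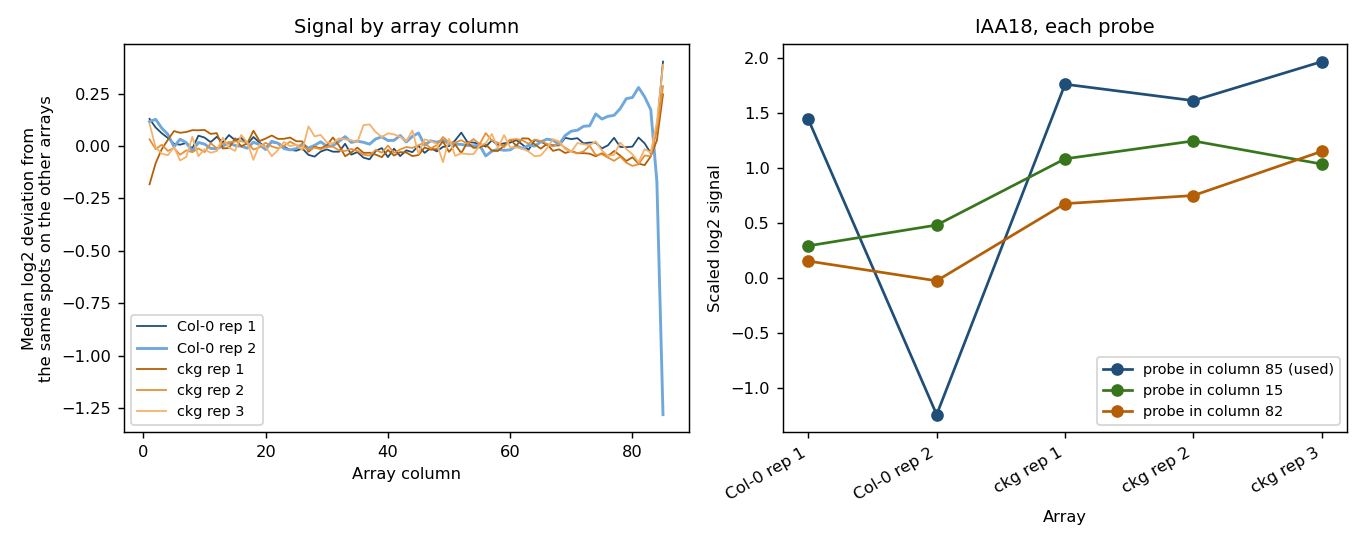
Left, median log2 deviation (vertical axis) of the spots of each array column (horizontal axis, 1 to 85) from the same spots on the other arrays, 1 line an array: Col-0 replicate 2 drops to −1.28 in column 85. Right, scaled log2 signal of the 3 IAA18 probes on the 5 arrays. From Col-0 replicate 1 to replicate 2 the probe in column 85 drops from 1.44 to −1.25. The probe in column 82 goes from 0.15 to −0.03, and that in column 15 from 0.29 to 0.48.

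IAA27 and IAA7 had probes in the same column. IAA27 (chromosome 4) has 1 probe on the array, so no other reading exists here. It gave −1.20 and −2.87 in Col-0 and, in ckg, −1.06, −0.85 and −1.25, a difference of 0.99 ± 0.49 log2 units (limma unadjusted p = 0.0982). Without Col-0 replicate 2 it was 0.15, and without Col-0 replicate 1 it was 1.82. The raw median intensity of the IAA27 spot was 1022 and 220 for Col-0 against 1191, 1372.5 and 902 for ckg. IAA7 (AXR2, chromosome 3), whose gain-of-function allele gives dwarf plants that resist auxin, was read on 4 arrays, because its spot on Col-0 replicate 2 carried the scanner software's outlier flag. Its signal was 2.75 on Col-0 replicate 1 and 2.72, 2.70 and 2.58 in ckg, a difference of −0.08 ± 0.15. The raw intensity of the discarded IAA7 spot was 2276, against 15201 on Col-0 replicate 1. The second, dim probe of IAA7 gave −0.03 ± 0.22.

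IAA26 (PAP1, chromosome 3), a repressor that also binds a tobamovirus replication protein, showed a similar break on a ckg array. It gave 1.34 on both Col-0 arrays and −0.40, 1.29 and 1.42 in ckg, so ckg replicate 1 stood alone. The difference was −0.57 ± 0.58 log2 units with that array and 0.01 without it. A range among ckg arrays as wide as this was found in 1.6% of genes. On ckg replicate 1, 32.9% of 79 neighbouring spots lay more than 1 log2 unit below the other arrays. The other probe of IAA26, elsewhere on the array, gave a difference of 0.20 ± 0.13 and no low value on ckg replicate 1.

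Several Aux/IAA genes sit beside each other in the genome, with 1 annotated gene between them, as 3 pairs on chromosomes 1, 3 and 4. On chromosome 1, IAA3 and IAA17 differed in sign. IAA3 (SHY2) restrains cell division in the root under cytokinin control and is known from its role in light responses of seedlings. It gave −0.45 and −0.43 in the wild type and −0.37, 0.08 and 0.55 in the mutant, a difference of 0.53 ± 0.28 log2 units (limma unadjusted p = 0.114), beside −0.76 ± 0.14 for IAA17. All ckg arrays of IAA3 were above Col-0, but they ranged over 0.93 log2 units among themselves, and without ckg replicate 1 the difference was 0.76 (limma unadjusted p = 0.0152).

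On chromosome 3, IAA2 and IAA7 were neighbours. IAA2, an early auxin-induced gene used in reporter lines, gave 3.25 and 3.43 in Col-0 and, in ckg, 3.92, 3.56 and 3.49, a difference of 0.31 ± 0.17 log2 units (limma unadjusted p = 0.119). Its other probe gave 0.24 ± 0.22. IAA7, described above, gave −0.08 ± 0.15.

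On chromosome 4 the pair was IAA14 and IAA1. IAA14 (SLR), whose stabilised form abolishes lateral roots, gave −1.14 and −1.16 for Col-0 against −1.17, −1.15 and −1.74 for ckg. On this probe ckg replicate 3 lay apart from the other arrays, and the difference was −0.20 ± 0.21 log2 units, or −0.56 ± 0.26 on its dimmer probe. IAA1, an auxin-induced repressor, gave −0.14 and 0.03 in the wild type and −0.19, −0.38 and −0.48 in the mutant, a difference of −0.30 ± 0.14 (limma unadjusted p = 0.0777). The sign for IAA1 differed between processed and raw signals. Its raw median intensity was 1738 and 1201 in Col-0 and, in ckg, 2079, 1921.5 and 1553, whereas its processed signal was 2283 and 2165 against 2134, 2008 and 1587. The local background was 31 to 37 on the 5 arrays. The difference was 0.27 with normexp correction, which starts from the raw median signal, and 0.25 in the authors' series table, which follows its ranks, and the cause was not tested. The IAA1 spot lies in column 80 of the array, where the median deviation of Col-0 replicate 2 in processed signal was 0.23 log2 units above the other arrays.

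The other measured repressors had unadjusted p-values above 0.05. IAA28, a repressor known from its part in lateral root founder cells, gave a difference of 0.39 ± 0.17 log2 units (limma unadjusted p = 0.0630), all 3 ckg arrays being above the Col-0 arrays. IAA13, a close relative of IAA12, gave 0.25 ± 0.12 (limma unadjusted p = 0.0844), with no overlap either. IAA10, a close relative of IAA11, gave −0.16 ± 0.12. IAA16 differed by 0.08 ± 0.16, and IAA8 by −0.10 ± 0.15 over 4 arrays, its spot on ckg replicate 3 having been discarded as an outlier. Around the IAA8 spot, 27.7% of 94 neighbouring spots on ckg replicate 1 were more than 1 log2 unit below the other arrays, and without that array the difference was 0.0359. IAA5, IAA6 and IAA19 differed by 0.12 ± 0.25, 0.23 ± 0.32 and 0.18 ± 0.45.

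The GH3 genes did not separate the genotypes. GH3.3, GH3.5 and GH3.6 join the hormone to amino acids. GH3.3 (chromosome 2) gave −2.30 and −1.55 for Col-0 against −1.17, −2.42 and −1.47 for ckg, a difference of 0.24 ± 0.44 log2 units with a 95% confidence interval of −0.87 to 1.34. Its ckg arrays spanned both Col-0 values. GH3.5 (WES1, chromosome 4), whose enzyme also acts on salicylic acid, gave −3.10 and −2.59 in the wild type and −2.31, −2.48 and −3.60 in the mutant, a difference of 0.05 ± 0.43 (−1.04 to 1.14). Its other probe gave −0.22 ± 0.42, with ckg replicate 3 lowest on both probes. The probe used was well above background on 2 of 3 ckg arrays. GH3.6 (DFL1, chromosome 5), whose excess dwarfs plants in the light, gave −2.46 and −2.34 in Col-0 and, in ckg, −2.08, −2.93 and −2.80, a difference of −0.20 ± 0.28 (−0.91 to 0.50). Each interval holds both 0 and a difference as large as the 1.41-fold of IAA4. A difference of that size was therefore not excluded for these genes with 5 arrays. Without ckg replicate 1 the difference of GH3.6 was −0.47 (limma unadjusted p = 0.0186).

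The ckg arrays ranged over more than the difference between genotypes in 14 of the 23 members with 3 ckg values (60.9%), against 69.4% of all genes. For IAA5, IAA6, IAA19, GH3.3, GH3.5 and GH3.6, a set chosen after the values had been seen, the ckg arrays ranged over 0.79 to 1.28 log2 units, against a size of difference between genotypes of 0.049 to 0.239. Over all genes tested the median range within ckg was 0.33, and ranges as wide as those of the 6 genes were found in 4.63% to 13.8% of genes. IAA19 (MSG2), which takes part in the bending of hypocotyls towards light, gave −1.89 and −1.04 for Col-0 against −0.53, −1.63 and −1.72 for ckg. IAA6 (SHY1) gave −3.81 and −3.50 in the wild type and −2.83, −3.65 and −3.78 in the mutant, its probe not being well above background on ckg replicate 3. IAA5, an early auxin-induced repressor, gave −3.02 and −3.24 in Col-0 and, in ckg, −2.57, −3.36 and −3.10. Around its spot, 19.1% of 89 neighbouring spots on ckg replicate 1 were more than 1 log2 unit below the other arrays.

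In each of these 6 genes ckg replicate 1 was the highest ckg array, and in 5 of them Col-0 replicate 2 was above Col-0 replicate 1. The set leaves out IAA26 and IAA3, whose ckg arrays ranged over 1.83 and 0.93 log2 units. In both of those, ckg replicate 1 was the lowest ckg array, so the shared peak depends on which genes were taken. Over the 23 members with 3 ckg values, ckg replicate 1 was highest in 11 (47.8%, against 34.6% of all genes). Replicate 2 was highest in 8 (34.8%, against 23.1%) and replicate 3 in 4 (17.4%, against 42.3%). These shares are a description and were not tested.

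**Figure D4:**
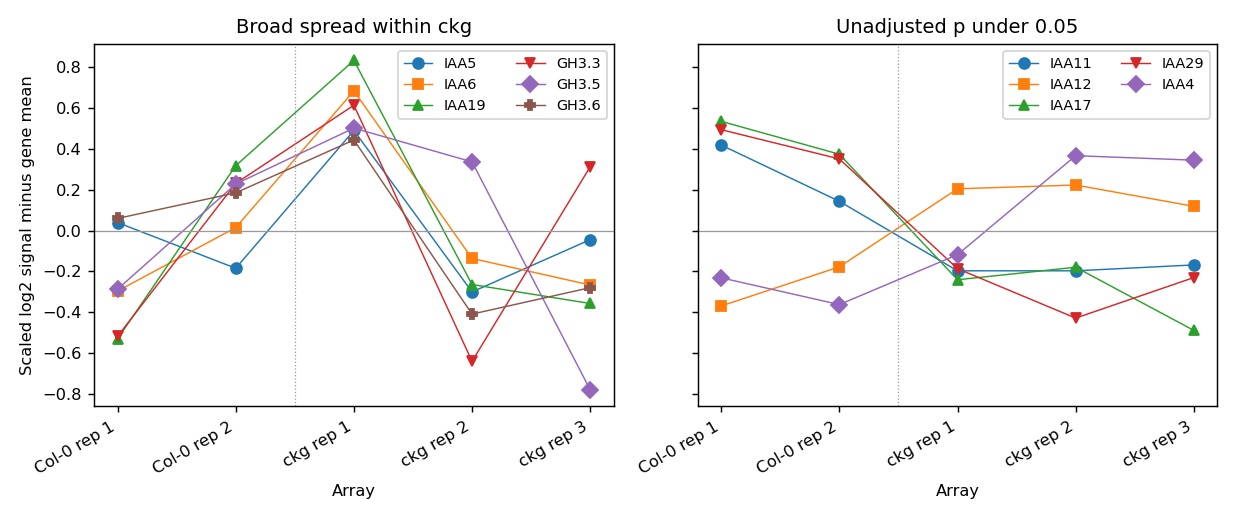
Scaled log2 signal of a gene minus its mean over the arrays (vertical axis) on the 5 arrays, 1 line a gene, with a dotted line between the genotypes. The 6 genes on the left, chosen after their values were seen and without IAA3 and IAA26, peak among the ckg arrays on replicate 1. The 5 genes on the right, those at an unadjusted p under 0.05, keep the ckg arrays on one side of the Col-0 arrays.

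The rest of the auxin pathway was read from lists of receptors, response factors, corepressors and enzymes, 147 genes of which 141 had a probe and 103 were tested. In limma 0 of the 103 passed an adjusted p of 0.05, and 16 (15.5%), 6 lower and 10 higher, had an unadjusted p under 0.05, a lower share than the 18.2% of all genes. That count was 7 without Col-0 replicate 1, 9 without Col-0 replicate 2, 10 without ckg replicate 2 and 24 without ckg replicate 3. The share of all genes moved with it, to 8.52%, 9.29%, 14% and 22.8%. The median difference of the 103 genes was 0.05 log2 units, and the genotypes did not overlap for 32.4% of 102 genes, against 42.1% of all genes.

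None of the 6 receptors, TIR1 and AFB1 to AFB5, was among the 16. Of 15 ARFs, the transcription factors that Aux/IAA proteins bind, 3 were. ARF3 (ETTIN), which sets leaf polarity, differed by −0.45 ± 0.11 log2 units (limma unadjusted p = 0.0101), and ARF19, an activator that acts with ARF7 in lateral root and leaf growth, by −0.58 ± 0.15 (limma unadjusted p = 0.0111). ARF11 differed by 0.42 ± 0.15 (limma unadjusted p = 0.0332). Of 5 TOPLESS corepressors, TPL itself differed by 0.28 ± 0.10 (limma unadjusted p = 0.0381). TPR3 differed by 1.23 ± 0.46 (limma unadjusted p = 0.0430), but its probe lies in column 85, and with that column set aside its other probe gave −0.41 ± 0.33.

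Auxin synthesis and transport held genes of both signs. Of 13 synthesis genes 6 were tested. The flavin monooxygenase gene YUC8, known to be induced by heat and shade, gave −4.43 and −4.79 for Col-0 against −5.25, −5.32 and −6.05 for ckg, a difference of −0.93 ± 0.29 log2 units (limma unadjusted p = 0.0215). Its relative YUC6 gave −4.97 and −4.69 in the wild type and −4.29, −3.75 and −3.12 in the mutant, a difference of 1.11 ± 0.35 (limma unadjusted p = 0.0239). All ckg arrays of YUC6 lay above Col-0. YUC8 was well above background on 2 of 3 ckg arrays, and its lowest value, on ckg replicate 3, was below the −4.95 of the lowest spot well above background there, so the size of its difference is uncertain. Of 11 transport genes, ABCB19, an auxin exporter of the stem, differed by −0.85 ± 0.19 (limma unadjusted p = 0.00607), and PID, the kinase that directs PIN exporters, by 0.52 ± 0.18 (limma unadjusted p = 0.0333). PID, like ARF19 above, was well above background on 2 of 3 ckg arrays. The ABCB19 probe lies in column 1, where 10.9% of spots on ckg replicate 1 were more than 1 log2 unit below the other arrays. The ARF19 probe lies in column 2, where that share was 6.36%. The median deviation of the spots in column 1 was 0.13 and 0.12 for Col-0 against −0.18, 0.03 and 0.11 for ckg. In column 2 it was 0.09 and 0.13 for Col-0 against −0.08, −0.01 and −0.01 for ckg. The part of position in these differences was not tested. None of 5 inactivation and release genes and none of 5 other GH3 genes was counted, the largest value among the latter being 1.22 ± 0.58 for GH3.10 (limma unadjusted p = 0.0884).

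The SAUR genes, small auxin-induced genes of which many promote cell expansion, made up nearly all of the rest. The list took every gene with SAUR and a number as its symbol or synonym, so SAUR21 and SAUR68 each occur more than once. Whether every entry belongs to the family was not checked. Of 80 listed, 49 were tested and 7 had a limma unadjusted p under 0.05, 2 lower and 5 higher. That share was 14.3% against 18.2% of all genes. The 2 lower genes, SAUR33 and SAUR16, have probes in columns 2 and 1, the columns described above for ARF19 and ABCB19. SAUR57 differed by 1.31 ± 0.26 log2 units (limma unadjusted p = 0.00324), SAUR3 by 0.58 ± 0.12 (limma unadjusted p = 0.00436), SAUR42 by 0.72 ± 0.18 (limma unadjusted p = 0.00969) and SAUR46 by 1.27 ± 0.37 (limma unadjusted p = 0.0173). The SAUR46 probe lies in column 84, where 19.1% of spots on Col-0 replicate 2 were more than 1 log2 unit below the other arrays, and its lowest value, −5.57, was on that array. SAUR3, SAUR42 and SAUR46 were well above background on 2 of 3 ckg arrays. Of 4 further early auxin targets, HAT2 was tested and was not among those counted.

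**Figure D5:**
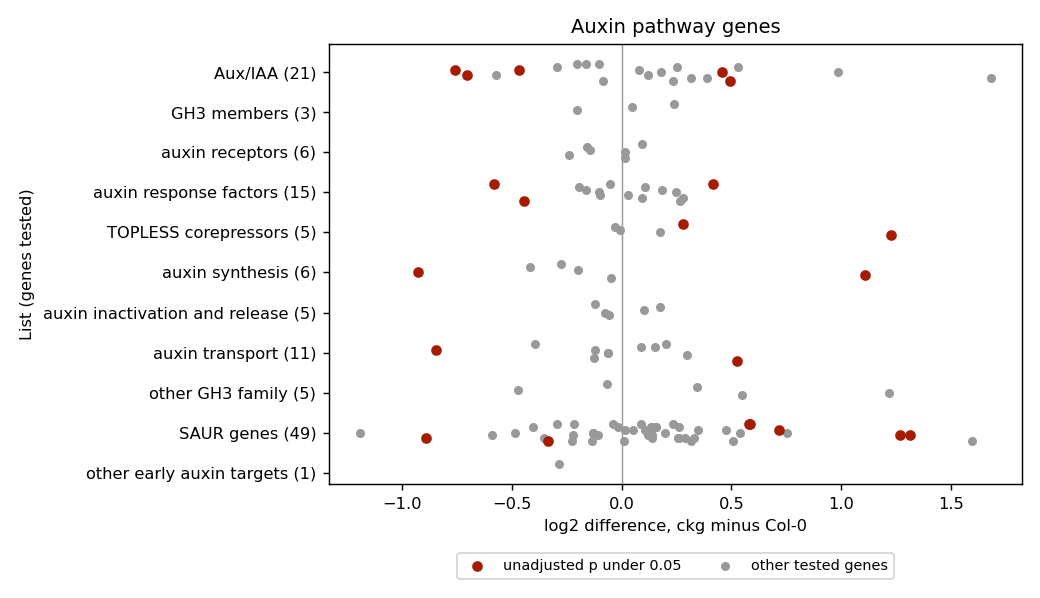
Log2 difference (ckg minus Col-0, horizontal axis) of each tested gene, 1 point a gene, by list (vertical axis, number tested in brackets); the vertical offset within a list carries no value. Red marks genes at a limma unadjusted p under 0.05, which lie on both sides of 0 among the Aux/IAA genes, the ARFs, the synthesis, transport and SAUR lists.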

How the data were processed

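Scanner files of 5 arrays and a series table were used. The spot intensity values and flags were deposited by the authors as Agilent Feature Extraction output (version 10.7.1.1, per the file headers), with 1 colour (Cy3) and a processed signal already background-corrected. The log2 values of the series table were deposited by the authors with scale and normalisation not given in the sources used here. Each array's median there was 8.41, and its ranks followed the raw median signal (Spearman 1).

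Control spots and outlier-flagged spots were left out, and log2(processed signal) was centred on each array's 75th percentile. Of 43603 probes, 34358 were matched to a locus through RefSeq accessions (assembly TAIR10.1). A gene was read from its brightest probe and tested with limma 3.58.1 in R 4.3.3 (lmFit, eBayes, 3 residual degrees of freedom, two-sided, Benjamini-Hochberg over 18122 genes). The step was tested on simulated data. The number of arrays limits precision. Each ckg bound takes, per array, the higher of the lowest well-above-background signal and the probe's own. Values on every array are given for members at an unadjusted p under 0.05, neighbouring pairs and the GH3 genes other than GH3.1. From other lists up to 4 genes by smallest p are named, with the difference and, for YUC6 and YUC8, the values on every array. Genes named beyond that were chosen after their values were seen. The members and lists were chosen with earlier results of these data known. Alternatives were background correction, scaling, filters, probes, moderation, replicate block, series table, each array left out and array position. Positions are array columns, and no genome coordinates or sequences are used here.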

Additional observations from a re-analysis of the deposited data

How the results depend on the processing

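Under every alternative run, 0 members passed a limma adjusted p of 0.05, while over all genes the count was 0 in the fit reported and 2 with normexp correction, 4 with trended robust moderation, 3 in the series table, 1 without Col-0 replicate 2 and 3 without ckg replicate 3. The lower count of 3 ranged from 2 to 5 and the higher count of 2 from 1 to 3 when single arrays were left out. The higher count was 1 with normexp, quantile scaling, no filter on dim probes and the series table. The pathway count of 16 was 10 without the filter, 9 with a filter on all arrays, 10 in the series table, and 7 to 24 with single arrays left out. Of 385 recomputed differences over 24 genes, 364 kept their sign and 21, over 11 genes, reversed. IAA1 was 0.27 with normexp and 0.25 in the series table, IAA6 −0.0781 in the series table, and GH3.5 −0.0841 as the mean of its probes. IAA7 was 1.64 as a mean of probes, since only its dim probe remained on Col-0 replicate 2, and 0.79 with outlier spots kept. Other probes gave 0.0383 for IAA17, 0.20 for IAA26 and −0.22 for GH3.5. With single arrays left out, IAA5 ranged from −0.10 to 0.30, IAA6 from −0.0609 to 0.42, IAA8 from −0.24 to 0.0359, IAA16 from −0.0279 to 0.19, IAA19 from −0.25 to 0.60, IAA26 from −0.90 to 0.0136, GH3.3 from −0.14 to 0.61 and GH3.5 from −0.33 to 0.45. The cause of these moves was otherwise not tested. Same-numbered arrays of the 2 genotypes deviated together with r = −0.09 and −0.10. The deviations of the 2 Col-0 arrays mirror each other, so these values cannot show whether same-numbered arrays were grown or handled together. With the replicate block, 0 of 22 members passed the adjusted p and 5 the unadjusted one. The slide as a block was not run, since each slide holds 1 genotype. Normexp used median spot signals. The higher floor of ckg replicate 3 limits values near background. GH3.1, not well above background on any array, read −6.04 there and −9.11 to −9.61 on the others.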
